A study of Homo sapiens with 18 samples.

Results

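The mitochondrial carriers are the genes of the SLC25 family together with the uncoupling proteins, and they were picked by symbol as every protein-coding gene named SLC25A followed by a number or UCP1, UCP2 or UCP3. This gave 51 of the 62703 genes in the expression tables, or 51 of 20015 protein-coding genes. The family was selected on the fall of UCP2 in cells with the EZH2 hairpin, so the values of that comparison are given as a description without p-values, and the call rule serves there only to sort the genes. RNA was sequenced from MDA-MB-231 cells, a human triple-negative breast cancer line. There were 5 groups with 2 libraries each. In the knockdown experiment the cells carried lentivirus for 24 h and then puromycin for 72 h, with a control hairpin (control shRNA), a hairpin to the histone methyltransferase EZH2 (shEZH2) or a hairpin to the transcription factor E2F1 (shE2F1), so the control libraries share the virus and the selection. In the drug experiment, whose labels name no hairpin, cells were given 1 uM of GSK126, an inhibitor of the EZH2 enzyme, or its solvent DMSO for 72 h. Each target stands under a single hairpin label, so loss of the target and any other action of its hairpin cannot be told apart. The labels do not say that libraries came from separate cultures, so the p-values measure the spread between these libraries, which may be technical.

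Mitochondrial carriers sit in the inner membrane of mitochondria and share a fold built from repeats of one small module. They exchange nucleotides, phosphate, carboxylic acids, amino acids and cofactors between the matrix and the cytosol, and so link the respiratory chain and the citric acid cycle to the rest of metabolism. UCP2, the member the family was selected on, is a relative of the proton leak protein of brown fat and is known to export C4 metabolites from the matrix in exchange for phosphate. It lies on chromosome 11 at 73974672 to 73982843 on the minus strand (GRCh38, GENCODE 44, ENSG00000175567), with its paralog UCP3 on the same strand 17433 bases away.

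The promoters of UCP2, the member the family was selected on, are printed so that the start regions behind its values can be read, and that of SLC25A11 because it held the letters of an E2F site. Each line gives the 250 bases before a transcription start from RefSeq (GRCh38.p14), 5′ to 3′ on the strand of the gene, and UCP2 has a pair of starts in the table. Capitals mark matches on either strand to a GC box, searched as CCGCCC. They also mark the CCAAT box, whose name spells its letters, and any of the E2F forms TTTCCCGC, TTTGGCGC, TTTCGCGC and TTTGCCGC. Matches of these motifs may overlap.
UCP2, first start, chr11:73982844-73983093, minus strand: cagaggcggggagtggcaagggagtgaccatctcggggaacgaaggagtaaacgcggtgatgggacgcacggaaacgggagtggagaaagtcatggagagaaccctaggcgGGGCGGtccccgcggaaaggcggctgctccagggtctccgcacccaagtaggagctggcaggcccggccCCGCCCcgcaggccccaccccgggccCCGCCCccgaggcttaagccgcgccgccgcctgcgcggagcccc
UCP2, second start, chr11:73983203-73983452, minus strand: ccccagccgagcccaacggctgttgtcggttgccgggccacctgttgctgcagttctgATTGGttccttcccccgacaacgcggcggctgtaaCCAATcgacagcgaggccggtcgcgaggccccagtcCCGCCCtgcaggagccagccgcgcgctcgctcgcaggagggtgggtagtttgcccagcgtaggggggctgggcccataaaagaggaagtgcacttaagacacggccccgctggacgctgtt
SLC25A11, chr17:4940047-4940296, minus strand: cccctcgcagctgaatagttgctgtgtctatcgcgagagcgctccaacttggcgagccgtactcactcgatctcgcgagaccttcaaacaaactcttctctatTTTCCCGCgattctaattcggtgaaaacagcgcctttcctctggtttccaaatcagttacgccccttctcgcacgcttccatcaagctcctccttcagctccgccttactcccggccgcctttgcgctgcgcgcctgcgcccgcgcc

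The start regions of 43 of the 51 members were in the table, with 54 starts in all. A GC box was present in 64.8% of the 54 carrier promoters, against 42.6% of all 35093 promoters of the same length. A CCAAT box was present in 40.7% of the carrier promoters and in 32% of all promoters. The E2F letters stood in 3 carrier promoters, those of SLC25A11, SLC25A14 and SLC25A17, which is 5.56% of them against 2.79% of all promoters. Neither UCP2 start held the E2F letters within this window, which says only that these letters were absent there. The matches are descriptions of sequence and not binding sites.

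The libraries held between 13198932 (shEZH2 replicate 1) and 20055550 (DMSO replicate 1) counts assigned to genes, and the limit that a count of 0 allows (3 counts) corresponded to 0.15 to 0.227 CPM (counts per 1000000 counts of a library), for counting error only. EZH2 stood at 153 and 181 CPM, after scaling of the libraries by the TMM method, in control shRNA and at 52.7 and 44.8 in shEZH2. E2F1 stood at 143 and 138 CPM in control shRNA and at 26 and 22.5 in shE2F1. It was also low in shEZH2, at 62.5 and 32.3 CPM. The mesenchymal marker VIM was abundant in every library (1185 to 2860 TPM, in which counts are scaled by transcript length and library), while PGR, the progesterone receptor, was at 0 and ESR1, the estrogen receptor, reached at most 0.17 TPM, as is known for this line. VIM was lower in shEZH2 (1357 and 1185 TPM) than in control shRNA (2739 and 2826 TPM). Other markers of such a line did not all follow. In shEZH2, AXL was lower (256 and 171 against 668 and 683 TPM) and ZEB1 higher (31.4 and 28.6 against 15.2 and 17.2 TPM). CD44 was at 489 and 522 against 446 and 448 TPM, and EGFR at 106 and 89.1 against 92.1 and 79.1 TPM. AXL was also low in shE2F1, at 170 and 169 TPM. The receptor gene ERBB2 was at 20 to 35.6 TPM. Markers of luminal epithelium were not all low, with KRT18 at 922 to 1319 TPM, EPCAM at 12.4 to 37.7 TPM and CDH1 at 0.26 to 4.5 TPM. PTPRC, PECAM1 and ALB, which mark leukocytes, endothelium and hepatocytes, reached at most 0.46, 0.72 and 0.06 TPM.

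The family spanned a wide range of levels, here compared between genes as TPM. Averaged over the 10 libraries, 4 carriers had at least 100 TPM, 26 had 10 to 100, 11 had 1 to 10, 6 were above 0 and under 1, and 4 had no count in any library. The highest were the phosphate carrier SLC25A3 (639 TPM), the ADP/ATP carriers SLC25A5 (631 TPM) and SLC25A6 (333 TPM), and SLC25A39 (180 TPM), a carrier needed for mitochondrial glutathione. The ranges of SLC25A3 and SLC25A5 over the libraries overlapped, so their order is not set by these data. UCP2 followed with a mean of 93.5 TPM and SLC25A1, the citrate carrier, with 88.2 TPM, and these neighbours overlapped as well. Their order changed with the group, since UCP2 was above SLC25A1 in control shRNA (means of 157 and 81.7 TPM) and below it in shEZH2 (14.1 and 36.9 TPM) and DMSO (117 and 127 TPM), while the libraries of shE2F1 and of GSK126 overlapped. The carriers with no count were UCP1, the proton leak protein of brown fat, SLC25A31, SLC25A47 and SLC25A48. UCP3 was the lowest of the carriers that could be tested, at 0.82 to 1.48 TPM.

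**Figure D1:**
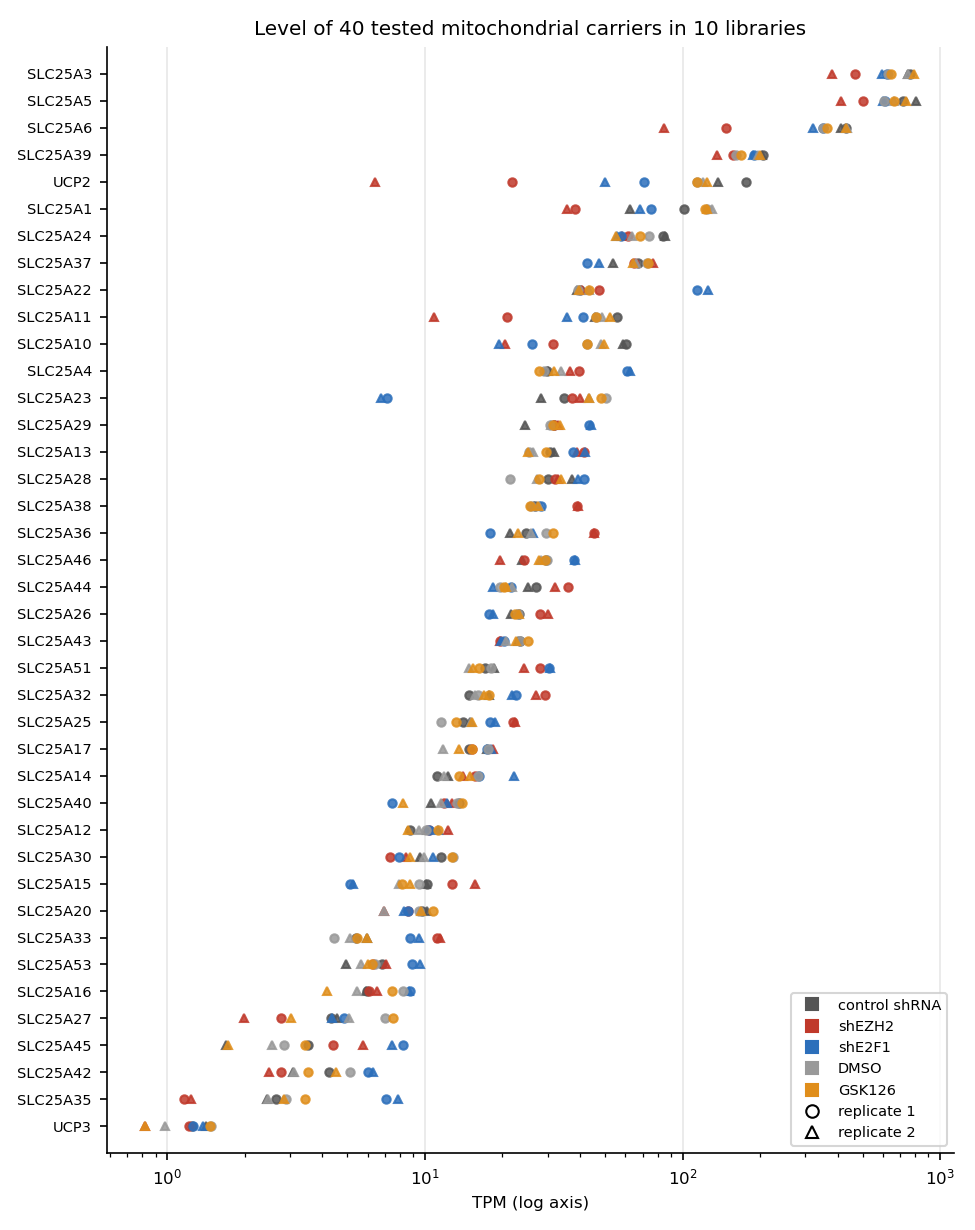
Level of 40 of the 41 tested carriers in TPM on a log axis, 1 point per library, coloured by group and shaped by replicate, ordered by the mean. SLC25A3, SLC25A5 and SLC25A6 stand at the top and UCP3 at the bottom, and the points of UCP2 spread more widely than those of its neighbours because the shEZH2 libraries lie far to the left.

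After a filter on low counts 41 of the 51 carriers could be tested. The other 10 (UCP1, SLC25A2, SLC25A18, SLC25A21, SLC25A31, SLC25A34, SLC25A41, SLC25A47, SLC25A48 and SLC25A52) were too low. A carrier was called when its edgeR adjusted p was under 0.01 and its level differed by more than 2-fold. In bulk RNA, fewer cells carrying a transcript and less of it per cell cannot be told apart.

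With the EZH2 hairpin the summed level of all 51 carriers was 2150 and 1848 TPM, against 3185 and 3121 TPM in control shRNA. It was 2753 and 2679 TPM in shE2F1, 2748 and 3028 TPM in DMSO and 2848 and 3143 TPM in GSK126. The shEZH2 libraries were thus the lowest of the 10, and the shE2F1 libraries also lay below both control shRNA libraries. SLC25A3, SLC25A5 and SLC25A6 together made up 60% and 63.1% of the family in control shRNA, 52% and 47.5% in shEZH2, and 57.5% and 56.4% in shE2F1. All other carriers together came to 1275 and 1152 TPM in control shRNA and to 1032 and 971 TPM in shEZH2, so most of the gap in the sum lay in these 3 genes.

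In shEZH2, 7 of the 41 tested carriers passed the call rule as lower and 0 as higher. Among all 15373 genes tested, 10.7% were called lower and 7.52% higher. Because the family was selected from this comparison, nothing is read from that count. The 7 were UCP2, SLC25A1, SLC25A6, SLC25A10, SLC25A11, SLC25A27 and SLC25A35. The median log2 change was -0.17 over the tested carriers and -0.02 over all genes tested.

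In shE2F1, 4 of the 41 tested carriers were called lower, which is 9.76% against 5.96% of all genes tested, and 3 were called higher, which is 7.32% against 5.6%. SLC25A10, SLC25A15 and SLC25A23 fell, with UCP2 as the other carrier called lower, and SLC25A22, SLC25A35 and SLC25A45 rose. Without the requirement of a 2-fold difference, 10 carriers were lower and 4 higher at an adjusted p under 0.01, or 24.4% and 9.76% of the 41, against 16.5% and 13.6% of all genes tested. Both counts of lower carriers include UCP2, on which the family was selected with the same control libraries, so nothing is read from them. The median log2 change was -0.21 over the carriers and 0.00 over all genes. This comparison shares the control shRNA libraries with that of shEZH2, so the values of both are set side by side below and their likeness was not tested.

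**Figure D2:**
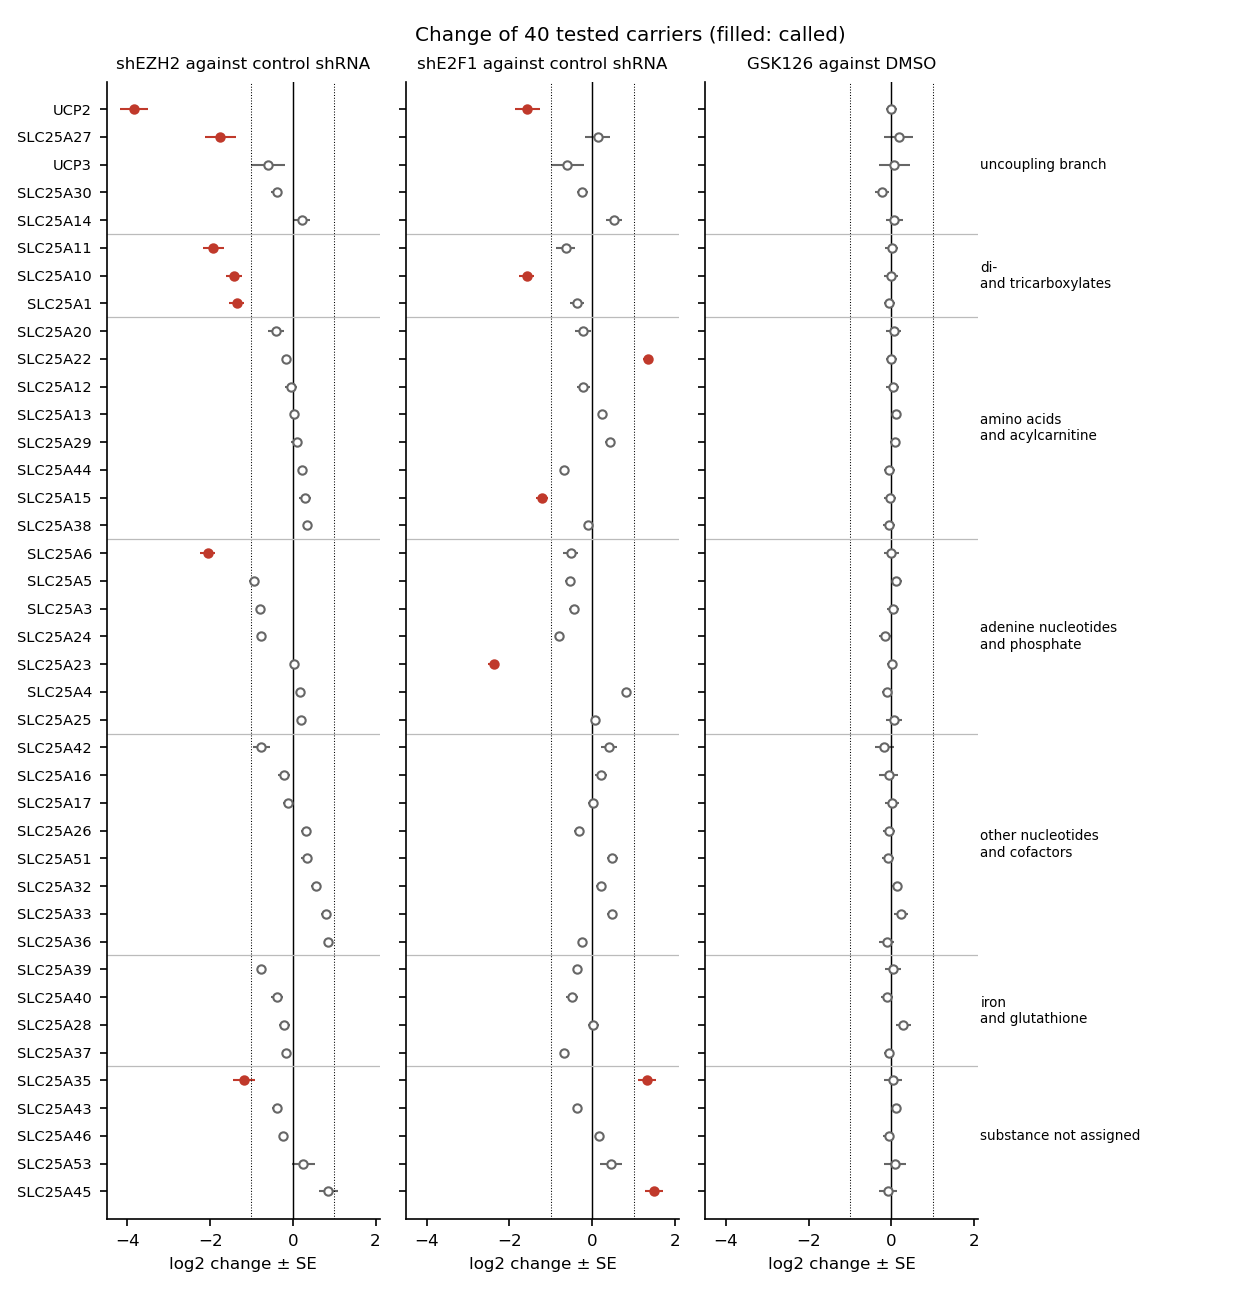
log2 change of 40 of the 41 tested carriers with its standard error in the 3 comparisons, grouped by the substance carried, with filled points for called carriers and dotted lines at a 2-fold difference. The filled points of shEZH2 all lie to the left, those of shE2F1 lie on both sides, and all points of GSK126 lie between -0.23 and 0.29.

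Among the uncoupling proteins and their nearest relatives, UCP2 was low with both hairpins. It stood at 178 and 146 CPM in control shRNA, 17.5 and 5.99 CPM in shEZH2, and 65.4 and 43.8 CPM in shE2F1. The 3 groups did not overlap, and shEZH2 was the lowest. The log2 change was -3.84 ± 0.34 (SE) in shEZH2, a 14.3-fold lower level. The size rested in part on single libraries, being -3.21 without shEZH2 replicate 2 and -4.77 without shEZH2 replicate 1. In shE2F1 the log2 change of UCP2 was -1.57 ± 0.30, a 2.98-fold lower level. The control libraries from which UCP2 was selected enter this value too, so it is given as a description without a p-value. UCP2 passed the call rule in shE2F1 with edgeR, but not with DESeq2 and not without shE2F1 replicate 2 (log2 change -1.32).

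The tested relatives of UCP2 had mean levels of 14.8 TPM or less. SLC25A27, also named UCP4, was at 2.38 and 2.22 CPM in control shRNA and at 0.754 and 0.634 CPM in shEZH2, a log2 change of -1.75 ± 0.38, and of -1.12 when the effective gene length of each library was taken into account. It passed the call rule in shEZH2 neither with that offset nor with DESeq2, nor without control shRNA replicate 1 or shEZH2 replicate 2. In shE2F1 it was at 2.68 and 2.37 CPM, which overlapped control shRNA (log2 change 0.13 ± 0.30, edgeR adjusted p = 0.761). UCP3, the neighbour of UCP2 on chromosome 11, was at 1.17 and 1.68 CPM in control shRNA, 0.98 and 0.922 CPM in shEZH2 and 1.01 and 0.863 CPM in shE2F1. Its log2 change in shE2F1 was -0.60 ± 0.40 (edgeR adjusted p = 0.244), and the 95% interval of -1.48 to 0.28 spans both no change and a fall of the size seen for some called members. SLC25A14 (UCP5) was at 6.94 and 7.62 CPM in control shRNA, 9.34 and 7.83 CPM in shEZH2 and 9.21 and 11.8 CPM in shE2F1 (log2 change in shE2F1 0.52 ± 0.19, edgeR adjusted p = 0.0463, not called). SLC25A30 (KMCP1) was at 20.3 and 21.2 CPM in control shRNA, 15.4 and 16.4 CPM in shEZH2 and 16.9 and 18.4 CPM in shE2F1 (log2 change in shE2F1 -0.24 ± 0.13, edgeR adjusted p = 0.15).

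The carriers of di- and tricarboxylates exchange citrate, malate, succinate and 2-oxoglutarate. All 3 that could be tested were called lower in shEZH2, while 1 of the 3 fell in shE2F1. The shares called lower over all genes were 10.7% in shEZH2 and 5.96% in shE2F1. Nothing is read from counts this small, in a class chosen with earlier results of these data known. With GC content and length taken out of the counts, SLC25A11 was the 1 of the 3 still called in shEZH2. SLC25A10, the dicarboxylate carrier, was at 72 and 75.6 CPM in control shRNA, 33.4 and 22.5 CPM in shEZH2 and 28.9 and 20.6 CPM in shE2F1. Both hairpin groups lay below the control libraries and overlapped each other. The log2 change was -1.42 ± 0.19 in shEZH2 and -1.58 ± 0.18 in shE2F1, where the edgeR adjusted p was 7.16e-05. An annotated gene on the same strand overlaps SLC25A10, and it reached at most 0.501 CPM in any library.

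SLC25A11, the 2-oxoglutarate/malate carrier of the malate-aspartate shuttle, was at 54.1 and 50.1 CPM in control shRNA, 19 and 9.33 CPM in shEZH2 and 37.6 and 29.4 CPM in shE2F1. The log2 change was -1.92 ± 0.25 in shEZH2 and -0.64 ± 0.23 in shE2F1 (edgeR adjusted p = 0.0407, not called). Its promoter, printed above, held the only E2F match among the called members in the promoter table. SLC25A11 was called in shEZH2 only, and no member called in shE2F1 and present in that table held such a match. RNF167, a gene on the opposite strand that overlaps SLC25A11, had a log2 change of -1.09 ± 0.11 in shEZH2. The library kit marks strand, but whether the counting used it is not given in the sources used here, so reads of the overlapping part may not have been separated.

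SLC25A1 exports citrate from the matrix, where it serves as a source of cytosolic acetyl-CoA. It was at 94.9 and 61.6 CPM in control shRNA, 30.9 and 30.6 CPM in shEZH2 and 65.7 and 56.8 CPM in shE2F1. The control libraries differed from each other, and shE2F1 overlapped them. The log2 change was -1.36 ± 0.18 in shEZH2 and -0.36 ± 0.17 in shE2F1 (edgeR adjusted p = 0.105).

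The ADP/ATP carriers and the phosphate carrier supply the ATP synthase with its substrates. Of these, SLC25A3, SLC25A5 and SLC25A6 were the most abundant members by mean TPM, while SLC25A4 averaged 38.2 TPM and SLC25A31 (ANT4) had no count. SLC25A6 (ANT3) was at 382 and 388 CPM in control shRNA, 117 and 69.2 CPM in shEZH2 and 286 and 252 CPM in shE2F1. Its log2 change was -2.06 ± 0.19 in shEZH2 and -0.52 ± 0.18 in shE2F1 (edgeR adjusted p = 0.0381). SLC25A5 (ANT2) was at 558 and 672 CPM in control shRNA, 349 and 297 CPM in shEZH2 and 438 and 414 CPM in shE2F1. The groups did not overlap, but the differences stayed under 2-fold, at -0.94 ± 0.11 in shEZH2 and -0.54 ± 0.11 in shE2F1 (edgeR adjusted p = 0.0032). SLC25A3 was at 417 and 459 CPM in control shRNA, 274 and 233 CPM in shEZH2 and 333 and 310 CPM in shE2F1, with log2 changes of -0.80 ± 0.10 and -0.45 ± 0.10 (edgeR adjusted p = 0.00472 in shE2F1). SLC25A4 (ANT1), the isoform of heart and skeletal muscle, went the other way in shE2F1, with a log2 change of 0.83 ± 0.09 (edgeR adjusted p = 5.07e-05). The ADP/ATP carriers are close paralogs. The posterior SD that the authors' software gave for a count came to at most 0.914% of that count in the tested members.

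SLC25A23, one of the calcium-regulated ATP-Mg/phosphate carriers, had the largest change of any tested carrier in shE2F1. It was at 68.7 and 59.1 CPM in control shRNA, 61 and 71.5 CPM in shEZH2 and 12.9 and 11.7 CPM in shE2F1. The shEZH2 libraries overlapped control shRNA and the shE2F1 libraries lay far below both. SLC25A23 fell by 2.38 ± 0.13 on the log2 scale in shE2F1, or 5.22-fold (edgeR adjusted p = 9.6e-07), while the log2 change in shEZH2 was 0.04 ± 0.12. CRB3, which overlaps SLC25A23 on the opposite strand, averaged 0.707 CPM in shE2F1 and 0.215 CPM in control shRNA. Of the related carriers of this kind, SLC25A24 had a log2 change of -0.79 ± 0.09 in shE2F1 (edgeR adjusted p = 4.62e-05, under 2-fold) and of -0.76 ± 0.09 in shEZH2, and SLC25A25 had 0.08 ± 0.10 in shE2F1.

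Among the 8 tested carriers of amino acids and acylcarnitine, 1 rose and 1 fell in shE2F1 and 0 were called in shEZH2. Each of the shE2F1 counts is 12.5% of the 8, against 5.6% of all genes called higher and 5.96% lower. In shEZH2 the share called over all genes was 18.2%. Nothing is read from counts this small. SLC25A22, a glutamate carrier, was at 62.4 and 66.1 CPM in control shRNA, 61.6 and 54.6 CPM in shEZH2 and 160 and 167 CPM in shE2F1. It rose by 1.34 ± 0.10 on the log2 scale, or 2.54-fold, in shE2F1 (edgeR adjusted p = 3.37e-06), and both shE2F1 libraries stood above all 8 others. PANO1, a coding gene on the opposite strand within its bounds, averaged 0.471 CPM with GSK126 against 0.659 CPM with DMSO and was too low to test in the knockdown libraries.

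SLC25A15, the ornithine carrier of the urea cycle, was at 20.6 and 24.2 CPM in control shRNA, 25.1 and 30.2 CPM in shEZH2 and 9.88 and 9.55 CPM in shE2F1. It fell by 1.21 ± 0.15 on the log2 scale in shE2F1 (edgeR adjusted p = 9.26e-05), and in shEZH2 its log2 change was 0.30 ± 0.14. SLC25A44, which carries branched-chain amino acids, had a log2 change of -0.67 ± 0.09 in shE2F1 (edgeR adjusted p = 0.000242, under 2-fold). The aspartate/glutamate carriers SLC25A12 and SLC25A13 were at log2 changes of -0.21 ± 0.15 and 0.25 ± 0.10 in shE2F1 and of -0.05 ± 0.15 and 0.04 ± 0.10 in shEZH2.

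**Figure D3:**
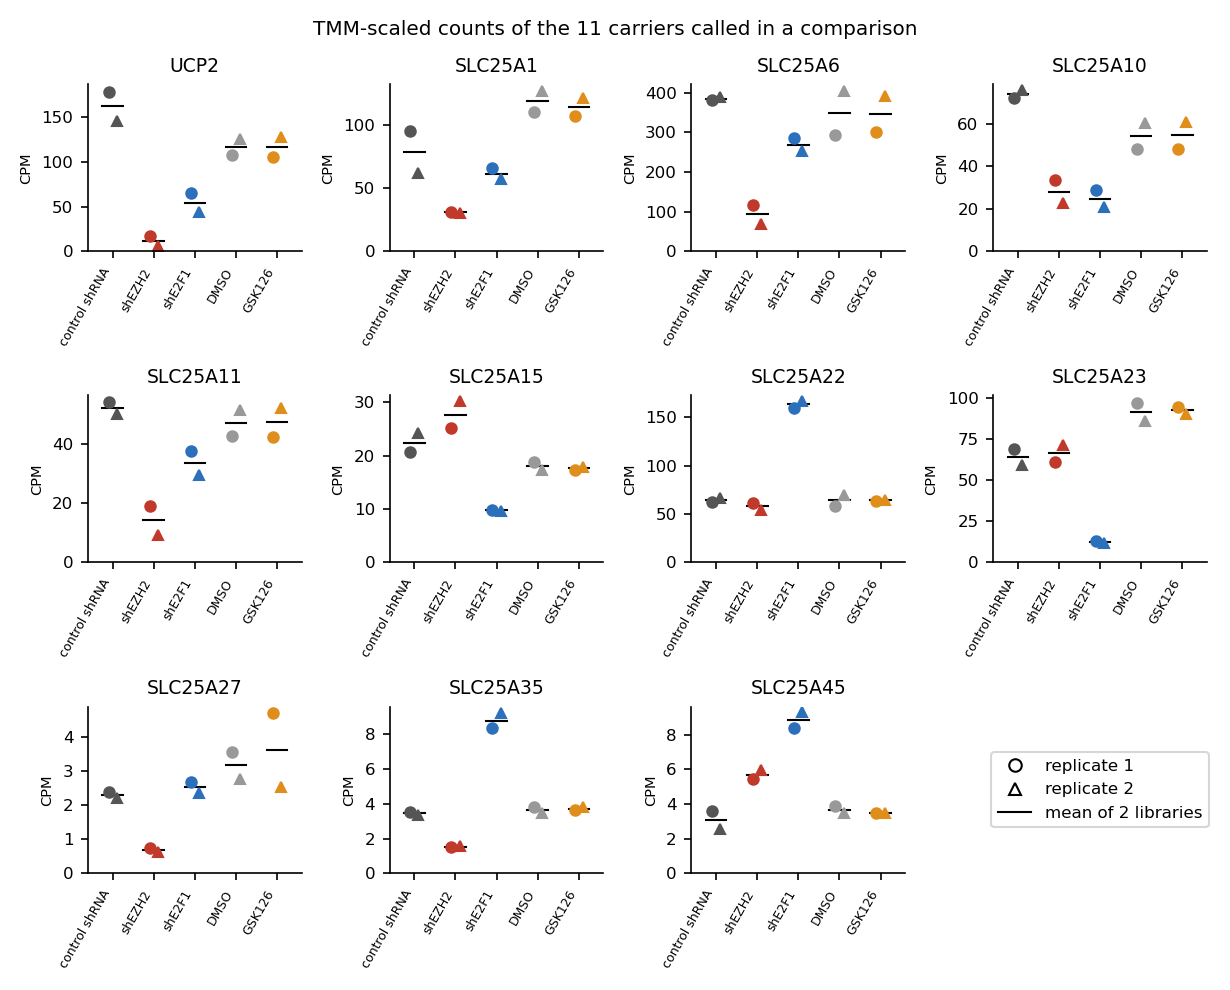
CPM of the 11 carriers called in at least 1 comparison, 1 point per library (circle, replicate 1; triangle, replicate 2) with a bar at the mean of each group, on linear axes from 0. UCP2 and SLC25A10 are low with both hairpins, SLC25A15, SLC25A22 and SLC25A23 leave the control level with the E2F1 hairpin, and the DMSO and GSK126 points overlap in all 11 panels.

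The members to which the grouping used here assigned no substance held the only carrier called in opposite directions. SLC25A35 was at 3.55 and 3.36 CPM in control shRNA, 1.51 and 1.56 CPM in shEZH2 and 8.34 and 9.22 CPM in shE2F1. Its log2 change was -1.18 ± 0.26 in shEZH2 and 1.33 ± 0.21 in shE2F1 (edgeR adjusted p = 0.000529), and the call in shE2F1 was lost without shE2F1 replicate 2 (edgeR adjusted p = 0.0115). The call in shEZH2 was lost with DESeq2, with GC content and length taken out, in a fit of the 4 libraries alone, and without control shRNA replicate 1 or either shEZH2 replicate. RANGRF, which overlaps it on the opposite strand, had log2 changes of -0.88 ± 0.24 and 0.26 ± 0.22 in the same order. SLC25A45 was at 3.6 and 2.58 CPM in control shRNA, 5.43 and 5.93 CPM in shEZH2 and 8.39 and 9.28 CPM in shE2F1. It rose by 1.5 ± 0.22 on the log2 scale in shE2F1 (edgeR adjusted p = 0.000348), and its log2 change in shEZH2 was 0.86 ± 0.23.

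Carriers of iron and glutathione and those of other nucleotides and cofactors were not called with either hairpin, where the shares called over all genes were 18.2% in shEZH2 and 11.6% in shE2F1. SLC25A39 was at 192 and 205 CPM in control shRNA, 121 and 113 CPM in shEZH2 and 160 and 152 CPM in shE2F1 (log2 change in shE2F1 -0.36 ± 0.09, edgeR adjusted p = 0.00772). SLC25A37, the iron carrier mitoferrin 1, had a log2 change of -0.67 ± 0.10 in shE2F1 (edgeR adjusted p = 0.000284). The pyrimidine nucleotide carriers SLC25A33 and SLC25A36 had log2 changes of 0.80 ± 0.13 and 0.85 ± 0.09 in shEZH2, the highest there after SLC25A45. In shE2F1 they were at 0.48 ± 0.13 and -0.24 ± 0.09, with edgeR adjusted p of 0.0112 and 0.053. With GC content and length taken out of the counts, the changes of SLC25A33 and SLC25A36 in shEZH2 came down to 0.68 and 0.51.

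Across the 41 tested members, 11 were called with at least 1 hairpin. The share of all genes called with at least 1 hairpin was not counted, so nothing is read from the 11. Taken singly, each comparison called 17.1% of the tested carriers, against 18.2% of all genes in shEZH2 and 11.6% in shE2F1. UCP2 and SLC25A10 were lower with both, SLC25A35 was called in opposite directions, 4 were called only in the comparison of shEZH2 (SLC25A1, SLC25A6, SLC25A11 and SLC25A27), 4 only in that of shE2F1 (SLC25A15, SLC25A22, SLC25A23 and SLC25A45), and 30 in neither. A call in 1 comparison and not in the other does not show a difference between the hairpins, which was not tested.

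With GSK126, 0 of the 41 tested carriers passed the call rule, and an unadjusted p under 0.05 was reached by 0. Among all 14632 genes tested the share called was 0%, with 577 at an unadjusted p under 0.05 in edgeR. DESeq2 called 0 carriers and 10 genes in all. These fits and the intervals below did not take the replicate number into account, with which the drug libraries deviated together. With a replicate block in edgeR, 0 carriers were called and 6 reached an unadjusted p under 0.05. The share of all genes at that p with the block was not counted. The DMSO libraries held UCP2 at 108 and 126 CPM and the GSK126 libraries at 106 and 128 CPM, so the groups overlapped. Its log2 change was 0.00 ± 0.14 (edgeR adjusted p = 1), with a 95% confidence interval of -0.34 to 0.34. The log2 changes of 40 carriers ran from -0.23 ± 0.16 (SLC25A30, at 27.3 and 21.9 CPM with DMSO and 21.9 and 20 CPM with GSK126) to 0.29 ± 0.19 (SLC25A28, the iron carrier mitoferrin 2, edgeR adjusted p = 1), and the median of all 41 was 0.01. For SLC25A10 the DMSO values were 48.3 and 60.4 CPM and the GSK126 values 48.1 and 60.8 CPM. For SLC25A23 they were 97 and 86 CPM with DMSO against 94.3 and 90.2 CPM with GSK126. The confidence interval of SLC25A10 was -0.40 to 0.41 and that of SLC25A23 was -0.28 to 0.30, both short of the 2-fold limit.

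Other genes of mitochondrial transport and of the reactions on either side of the carriers were counted from 4 lists, to be read beside medians over all genes of -0.02 in shEZH2 and 0.00 in shE2F1. Of 21 genes of carrier insertion and the outer membrane, 0 were called in shEZH2 and 2 fell in shE2F1, with medians of -0.15 and -0.18 (log2 change). The share called lower was 0% and 9.52%, against 10.7% and 5.96% of all genes. The fallen genes were TOMM22, a receptor of the outer membrane import complex (log2 change -2.01, edgeR adjusted p = 1.28e-06), and TIMM22, the channel of the complex that inserts carriers into the inner membrane (-1.12, edgeR adjusted p = 4.31e-05). Of 17 genes of other inner membrane transport, 1 was higher and 2 were lower in shEZH2, and 1 rose in shE2F1, with medians of -0.13 and -0.12. The share called in either direction was 17.6% in shEZH2 and 5.88% in shE2F1, against 18.2% and 11.6% of all genes. SFXN3, a sideroflexin, had log2 changes of 1.24 in shEZH2 and 1.25 in shE2F1 (edgeR adjusted p = 1.01e-05 in shE2F1). SFXN2, of the same family, and ABCB8, an ABC transporter of the inner membrane, were the lower ones in shEZH2, with log2 changes of -1.11 and -1.18.

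Of 30 enzymes that make or use the substances carried, 8 were called lower in shEZH2 and 3 fell in shE2F1, with 0 higher in either and medians of -0.44 and -0.08. The share called lower was 26.7% and 10%, against 10.7% and 5.96% of all genes. The 4 lists were chosen with earlier results of these data known. Their values with GC content and length taken out of the counts are not given, so nothing is read from the shares of these lists. The enzymes called lower in shE2F1 were the malic enzyme ME1 (log2 change -1.83, edgeR adjusted p = 2.32e-05) and the folate enzymes MTHFD1L (-1.28, edgeR adjusted p = 7.55e-05) and SHMT2 (-1.27, edgeR adjusted p = 0.000131). The lowest in shEZH2 were PCK2 (log2 change -2.38), PYCR1 (-2.19), CPT1C (-2.18) and IDH2 (-1.46). Of 11 factors of mitochondrial biogenesis, 1 was called higher and 1 lower with each hairpin, with medians of 0.10 and -0.06. Each of these is 9.09% of the list, where 7.52% of all genes were called higher and 10.7% lower in shEZH2, and 5.6% and 5.96% in shE2F1. A single call in a list this short is close to those shares. PPARGC1A, a coactivator of mitochondrial gene programmes, had log2 changes of 2.48 ± 0.45 in shEZH2 and 1.85 ± 0.45 in shE2F1 (edgeR adjusted p = 0.0058 in shE2F1). Its level was low throughout, with means of 0.63 CPM in control shRNA, 3.67 CPM in shEZH2 and 2.35 CPM in shE2F1, so these changes rest on few counts. The lower factors were ESRRA in shEZH2 (log2 change -1.07) and PPARGC1B in shE2F1 (-1.28 ± 0.31, edgeR adjusted p = 0.00578). PPARGC1B was low as well, with means of 4.45 CPM in control shRNA and 1.83 CPM in shE2F1. With GSK126, 0 genes of the 4 lists were called by edgeR, and 1 had an unadjusted p under 0.05.

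**Figure D4:**
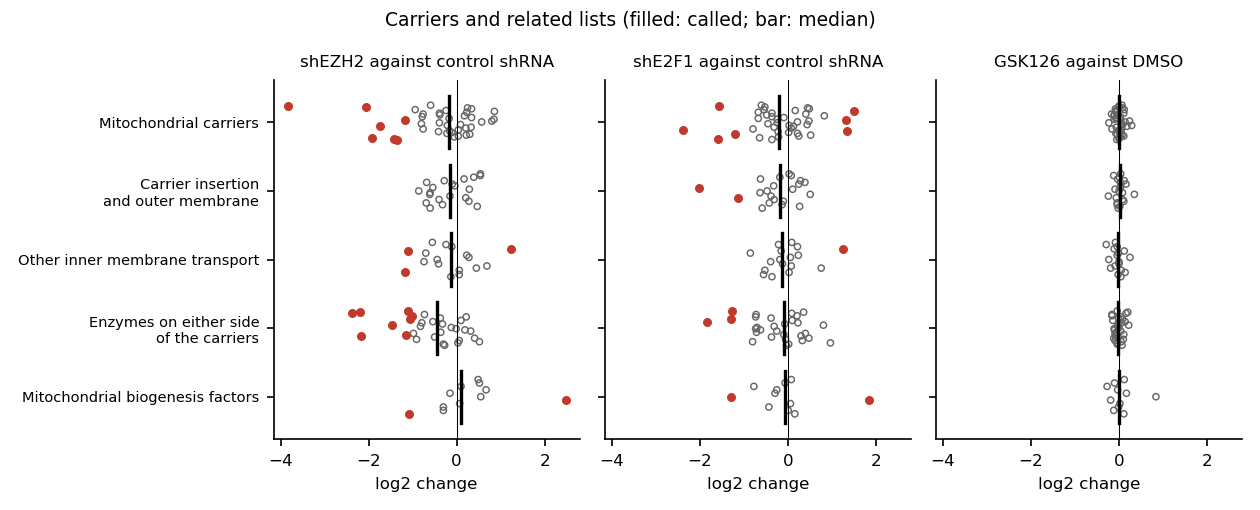
log2 change of 40 tested genes of the carrier family and of the tested genes of 4 related lists in the 3 comparisons, with filled points for called genes and a bar at the median of each list. UCP2 is the farthest point to the left in shEZH2, and SLC25A23 and TOMM22 are the farthest in shE2F1.

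The change in shEZH2 moved with base composition. The log2 change had a Pearson correlation (over genes, which do not count as independent replicates) with the GC content of the longest transcript of -0.24 over 15366 genes and of -0.35 over the 41 carriers. In shE2F1 the values were -0.02 and -0.04, and in GSK126 they were 0.02 and 0.10. The median GC content was 49.4% over the tested carriers and 59.3% over the 7 called lower in shEZH2. When GC content and length were taken out of the counts, UCP2 (-3.49), SLC25A6 (-1.61), SLC25A11 (-1.51) and SLC25A27 (-1.86) remained called in shEZH2. SLC25A1 (-0.77), SLC25A10 (-0.87) and SLC25A35 (-0.80) came under 2-fold, and SLC25A3 (-1.08) and SLC25A45 (1.02) passed it. The 7 carriers called in shE2F1 were the same with the correction. The part of base composition in the shEZH2 values was not tested further.

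**Figure D5:**
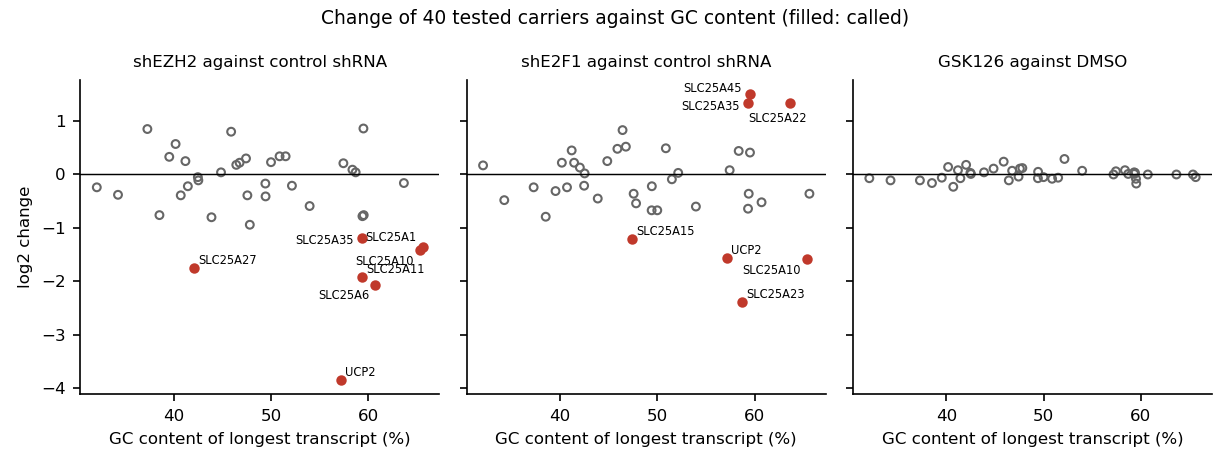
log2 change of 40 of the 41 tested carriers against the GC content of their longest transcript in percent, with 1 panel per comparison and filled, named points for called carriers. In shEZH2 the called carriers other than SLC25A27 lie at 57.2% GC or above, and in shE2F1 called carriers of like GC content lie both above and below 0.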

How the data were processed

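RNA-seq of MDA-MB-231 cells was analysed from the authors' gene tables. The 18 sample records held 10 distinct libraries, 8 records repeating the values of another, and each library was counted once (2 per group). The authors aligned reads with STAR 2.7.2b and quantified genes with RSEM 1.3.1 (versions per the submitters' notes, where the study's methods name another STAR release) on hg38 with an Ensembl annotation. The deposited values used here were expected counts, which were rounded to whole numbers, and TPM, with the effective lengths and posterior SDs of the deposited tables. Symbols, positions and GC content came from GENCODE 44, in which 99.9% of the gene IDs were found. The 3 comparisons were fitted with edgeR 4.0.16 (quasi-likelihood, TMM, filterByExpr), with the 6 knockdown and the 4 drug libraries in separate fits and Benjamini-Hochberg adjustment over all genes tested. Errors are Wald standard errors of the log2 change. Calls needed an adjusted p under 0.01 and a change over 2-fold. The fit was checked on simulated counts. Depth was 13198932 to 20055550 counts per library. Genes named with a value in every library were the uncoupling branch, carriers called in a comparison, the 6 carriers of highest mean TPM and, in GSK126, the carrier of smallest p in each direction; called genes of the related lists were named up to 4 per list. Other named carriers were picked after their values were seen. The members, classes and lists were chosen with earlier results of these data known. Alternatives were DESeq2 1.42.0, its size factors, other count filters, all 10 libraries, a replicate block, GC and length correction, effective length (chosen after seeing the data) and leaving out each library. The values of 1 tested carrier and 1 promoter sequence are not reported here, and that carrier is counted in the totals.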

Additional observations from a re-analysis of the deposited data

How the results depend on the processing

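The number of carriers called was 5 to 7 in shEZH2, 5 to 7 in shE2F1 and 0 in GSK126 over all alternatives that kept the call rule. With an adjusted p under 0.05 and no fold limit it was 23 in shEZH2 and 23 in shE2F1. The share of all genes at that limit was not counted, so nothing is read from the 23. An unadjusted edgeR p under 0.05 was reached by 61% of the tested carriers and 60.6% of all genes in shEZH2. In shE2F1 the same shares were 63.4% and 52.8%. UCP2 in shE2F1 had a log2 change of -1.57 with DESeq2, where it missed the call rule, and of -1.89 to -1.32 when a library was left out. In GSK126 the log2 change of UCP2, 0.00 as reported, was 0.01 with a mean of at least 50 counts, with the GC and length correction and with that correction plus the replicate block, 0.00 with the effective length offset, and -0.14 to 0.13 when a library was left out. SLC25A27 in shE2F1 turned to -0.14 with the effective length offset (chosen after seeing the data), by construction of that offset, and was called in neither fit. Library depth limits UCP3, SLC25A27, SLC25A35 and SLC25A45, which lay under 10 CPM.

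Replicates that share a number deviated together in the drug experiment (Pearson r = 0.7 over 11919 genes) and little in the knockdown experiment (0.03 to 0.19), but the labels do not say what a number marks and each comparison has 2 pairs. With the replicate block the carriers called were 7, 7 and 0 in shEZH2, shE2F1 and GSK126. In GSK126 the call rule was passed by 68 genes in all, of which 0 were carriers. At the looser limit of an adjusted p under 0.05 with no fold limit there were 3 carriers (SLC25A5, SLC25A24 and SLC25A28). The share of all genes at that looser limit was not counted.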

Other observations

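The effective length that the authors' software gave a gene, which follows the mix of its transcripts, differed between groups for a few carriers, and changes from TPM and from counts differed in size. For SLC25A27 the log2 effective length differed from control shRNA by -0.63 in shEZH2 and by 0.27 in shE2F1, and its mean TPM differed by -0.90 on the log2 scale in shEZH2 against -1.75 from counts. For SLC25A46, a member of the outer membrane, the log2 effective length differed by 0.24 in shEZH2 and by -0.16 in shE2F1, and its log2 mean TPM by 0.52 in shE2F1 against 0.17 from counts. A gap between the scales was also present without a length difference. SLC25A5, with a log2 effective length difference of 0.00 in shEZH2, had a log2 difference of -0.73 from mean TPM against -0.94 from counts, and SLC25A6 (0.01) had -1.86 against -2.06. No test was made of transcript use.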
